A study of Homo sapiens with 4 samples.

Results

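The genes described here are 9 components of the NRF2 antioxidant pathway in HuH7, a human hepatocellular carcinoma cell line, after knockdown of MKL1 and MKL2. They are NFE2L2, which encodes the transcription factor NRF2, its inhibitor KEAP1, and 7 antioxidant genes that NRF2 is known to activate: GCLC, GCLM, GSR, TXNRD1, SRXN1, NQO1 and HMOX1. All 9 were taken from a list of gene names and found among the 18417 genes measured, each through 1 probe that names no other gene. The series compares 2 cultures that stably carried an shRNA against MKL1 and MKL2 (called knockdown here) with 2 that stably carried a negative control shRNA (control), each on its own 1-colour array of total RNA. Both groups were infected with virus made in HEK293T cells from the pLKO.1 vector, selected with puromycin for 7 days, grown in 10% serum and used below passage 10, so vector and drug are shared by all 4 samples. The titles call the samples biological replicates without saying whether they came from separate infections, so the p-values measure only the spread between these cultures.

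NRF2 is a basic leucine zipper transcription factor whose activity is set mainly through the stability of its protein. KEAP1 holds NRF2 at a ubiquitin ligase built on CUL3, which leads to its degradation. Oxidants and electrophiles modify cysteines of KEAP1, and NRF2 then accumulates, pairs with small MAF proteins and binds antioxidant response elements in its target genes. In liver cells these targets make and recycle glutathione and thioredoxin, reduce quinones and break down heme. The array measures mRNA and not NRF2 protein.

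RefSeq promoter windows (build GRCh38.p14), from 250 bases before to 50 bases after an annotated start, were read for 7 of the 9 genes, all but HMOX1 and GSR. The windows were searched on both strands for TGACNNNGC, the core of the antioxidant response element. It was found in 4 of 10 windows, which belong to GCLM, TXNRD1 and KEAP1, against 13.3% of all 35116 promoter windows. The 4 windows below were chosen because they hold a match (the first 3) or belong to the gene with the widest gap between the knockdown arrays (SRXN1, no match), and capitals mark the matched letters. A match describes letters and is not a site that was shown to be bound.
GCLM (chr1:93909381-93909680, minus strand): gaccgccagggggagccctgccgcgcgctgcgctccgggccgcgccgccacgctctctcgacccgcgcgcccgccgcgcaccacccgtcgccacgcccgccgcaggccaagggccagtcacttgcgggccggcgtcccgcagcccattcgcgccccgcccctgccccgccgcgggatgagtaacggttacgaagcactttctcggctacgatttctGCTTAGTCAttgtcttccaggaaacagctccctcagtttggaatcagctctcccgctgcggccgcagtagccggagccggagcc
TXNRD1 (chr12:104215529-104215828, plus strand): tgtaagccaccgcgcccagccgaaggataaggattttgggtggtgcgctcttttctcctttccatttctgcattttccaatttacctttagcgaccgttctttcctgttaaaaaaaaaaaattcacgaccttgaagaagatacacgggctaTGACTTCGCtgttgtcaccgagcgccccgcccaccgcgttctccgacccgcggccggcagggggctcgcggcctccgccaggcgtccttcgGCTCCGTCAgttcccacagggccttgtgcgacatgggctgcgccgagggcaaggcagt
KEAP1 (chr19:10502722-10503021, minus strand): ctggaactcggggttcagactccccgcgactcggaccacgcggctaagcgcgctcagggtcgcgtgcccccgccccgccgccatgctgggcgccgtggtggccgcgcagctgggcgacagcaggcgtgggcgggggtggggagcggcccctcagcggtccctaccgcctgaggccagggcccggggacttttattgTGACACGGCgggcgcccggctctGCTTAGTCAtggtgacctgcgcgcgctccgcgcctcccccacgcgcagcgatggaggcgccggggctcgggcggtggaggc
SRXN1 (chr20:653151-653450, minus strand): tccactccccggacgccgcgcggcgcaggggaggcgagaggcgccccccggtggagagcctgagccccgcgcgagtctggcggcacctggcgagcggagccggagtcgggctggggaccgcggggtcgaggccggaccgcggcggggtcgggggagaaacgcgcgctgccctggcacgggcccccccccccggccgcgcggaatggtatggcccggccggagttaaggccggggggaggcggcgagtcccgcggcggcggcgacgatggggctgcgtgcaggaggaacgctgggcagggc

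In GCLM and in KEAP1 the letters GCTTAGTCA, which read TGACTAAGC on the opposite strand, lie at bases -34 to -26 and -31 to -23 from the start. The KEAP1 window also holds TGACACGGC, and the TXNRD1 window shown holds TGACTTCGC and, on the opposite strand, TGACGGAGC. The other TXNRD1 window, not shown, holds TGACAAAGC on the opposite strand, at bases -102 to -94 from its start. The AP-1 motif TGANTCA and the CArG box, the motif of serum response factor, were found in 0 of the 10 windows, against 7.71% and 1.29% of all windows. The TGACNNNGC and TGANTCA motifs can overlap in their first bases. The windows of NQO1, GCLC, SRXN1 and NFE2L2 and the other KEAP1 window held no TGACNNNGC match, which says nothing of sequence outside 300 bases.

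The 4 arrays gave log2 expression values with array medians between 5.68 and 5.73. All 9 measured hepatocyte markers, among them ALB and AFP, read between 9.91 and 12.43, while the leukocyte marker PTPRC read between 2.78 and 3.22 and the endothelial marker CDH5 between 5.21 and 5.37. Of 16 measured markers of fibroblasts, endothelial cells and leukocytes, 5 averaged above the median of all probes, among them the lysozyme gene LYZ at 12.02 to 12.25; the markers named here were picked after their values were seen. The MKL1 (MRTFA) probe, which also lists RBM15, averaged 6.86 ± 0.07 in knockdown and 7.79 ± 0.02 in control cells (SD of 2 arrays in each group), and it fell with a limma adjusted p of 0.0404. That call was lost without control replicate 1 (adjusted p = 0.732) or control replicate 2 (0.638), with all probes tested (0.199) and without variance moderation (0.416), and over the alternatives tried the adjusted p ran from 0.0145 to 0.732. MKL2 (MRTFB) averaged 6.98 ± 0.19 in knockdown and 7.21 ± 0.01 in control cells and did not pass (limma adjusted p = 0.448). Serum response factor (SRF) averaged 9.45 ± 0.11 in knockdown and 9.89 ± 0.12 in control cells and did not pass (limma adjusted p = 0.188). The knockdown arrays differed from each other more than the controls did, with an SD over genes of 0.265 for their log2 difference against 0.154 between the controls. Between a knockdown and a control array this SD was similar, from 0.2605 (knockdown replicate 2 and control replicate 2) to 0.3103 (knockdown replicate 1 and control replicate 1).

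None of the 9 NRF2 pathway genes passed the test between knockdown and control cells. Group differences ran from -0.39 for SRXN1 to 0.19 for NFE2L2 on the log2 scale, with a median of -0.07 against 0.01 over all genes. Below 0 lay 6 of the 9, against 8835 of all 18417 genes. Limma called 0 of 9 at an adjusted p under 0.05 (Benjamini-Hochberg, over all genes tested), where it called 0.174% of all genes, 0.0923% lower and 0.0814% higher. At an unadjusted p under 0.05 KEAP1 was the 1 gene lower and 0 were higher, where 8.04% of all genes were lower and 6.25% higher. In the knockdown cultures all 7 antioxidant genes lay lower in replicate 2 than in replicate 1, and below both controls in replicate 2, where 52.1% and 40.1% of all genes did. These counts were not among the planned results and follow the pattern of these 7 genes, so the shares only describe it. In total RNA of a culture, fewer cells that express a gene and less of its RNA per cell cannot be told apart.

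**Figure D1:**
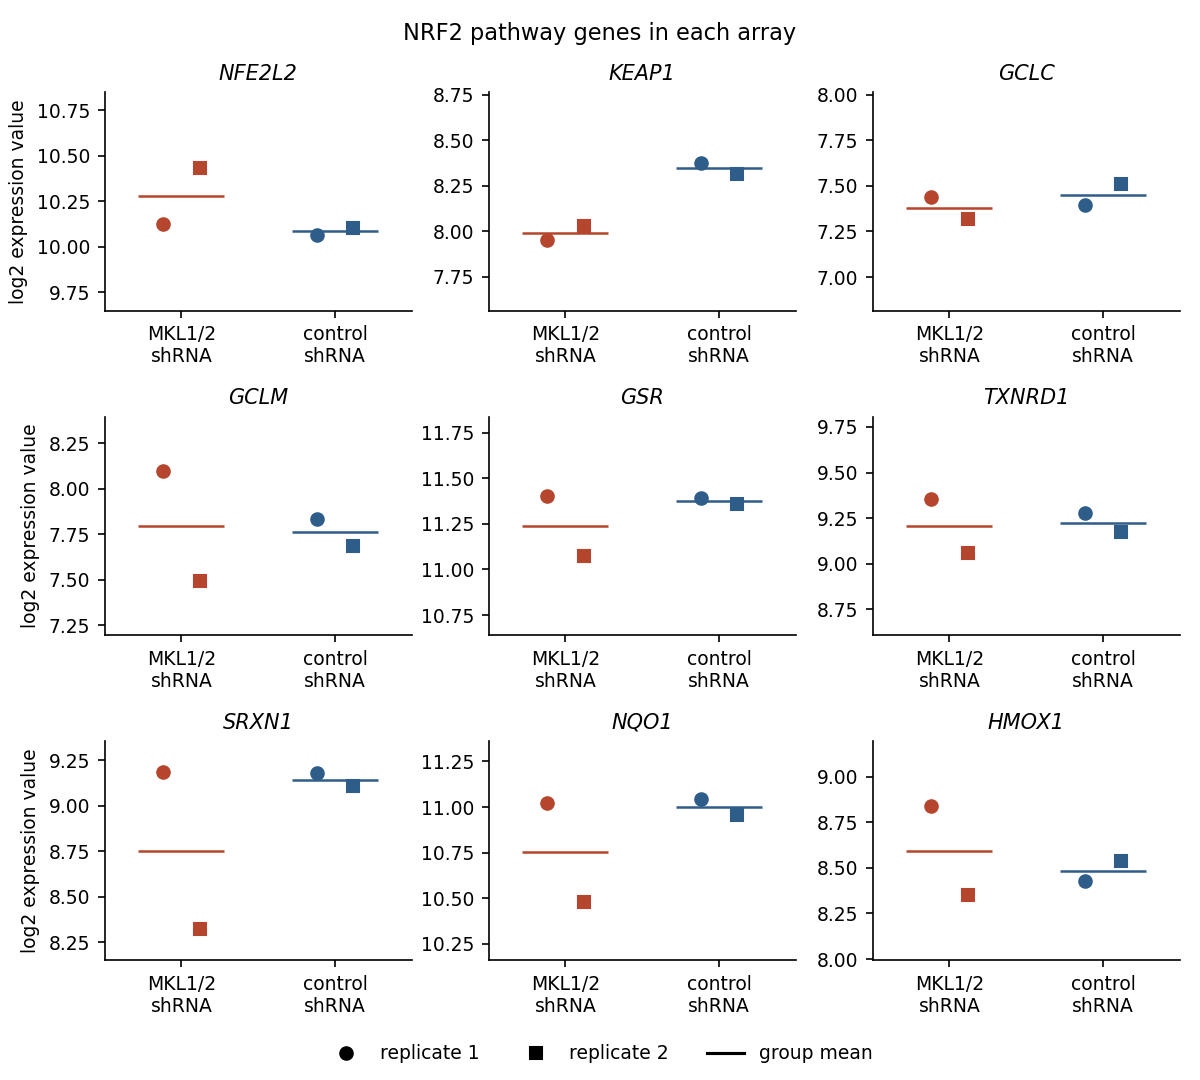
Log2 expression value (y axis) of the 9 NRF2 pathway genes in each array, with circles for replicate 1, squares for replicate 2 and a line at the group mean; every panel spans the same range of log2 units. Knockdown replicate 2 sits below replicate 1 for each of the 7 antioxidant genes, and KEAP1 has both knockdown values below both control values.

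The regulators NFE2L2 and KEAP1 were the 2 members whose groups did not overlap. NFE2L2 read 10.13 and 10.43 in the knockdown arrays, against 10.07 and 10.10 in the control arrays. Both knockdown values were the higher ones, replicate 1 by 0.04 over the control mean, and the difference of 0.19 did not pass (SE 0.13, 95% interval -0.12 to 0.50, limma adjusted p = 0.552). KEAP1, the substrate adaptor that presents NRF2 for degradation, read 7.95 and 8.03 in the knockdown arrays, against 8.38 and 8.32 in the control arrays. Both knockdown values were lower by a similar amount, 0.39 and 0.32 below the control mean, where the control arrays differed by 0.06. The KEAP1 difference of -0.35, or 0.783 of the control level, had an unadjusted p of 0.00983 and did not pass over all genes (SE 0.10, 95% interval -0.59 to -0.12, limma adjusted p = 0.207). Members without overlap numbered 1 of 9 on the lower and 1 of 9 on the higher side, where 23% and 22.5% of all genes did not overlap, or 45.5% together.

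Glutathione is made and kept reduced by the products of GCLC, GCLM and GSR. GCLC, the catalytic subunit of glutamate-cysteine ligase, the rate-limiting enzyme of glutathione synthesis, read 7.44 and 7.32 in the knockdown arrays, against 7.40 and 7.51 in the control arrays. The groups overlapped, and the difference of -0.07 was the one with the narrowest interval among the 7 antioxidant genes (SE 0.10, 95% interval -0.32 to 0.18). GCLM, the modifier subunit of the same enzyme, read 8.09 and 7.50 in the knockdown arrays, against 7.83 and 7.68 in the control arrays. The knockdown arrays thus lay on opposite sides of both controls, 0.33 above their mean in replicate 1 and 0.26 below it in replicate 2. The group difference of GCLM was 0.04 (SE 0.20, 95% interval -0.45 to 0.52). GSR, glutathione reductase, read 11.40 and 11.07 in the knockdown arrays, against 11.39 and 11.36 in the control arrays. Knockdown replicate 1 lay 0.03 above the control mean and replicate 2 lay 0.30 below it, for a difference of -0.14 (SE 0.13, 95% interval -0.46 to 0.18).

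The thioredoxin and peroxiredoxin branch was represented by TXNRD1 and SRXN1. TXNRD1, cytosolic thioredoxin reductase, read 9.35 and 9.06 in the knockdown arrays, against 9.28 and 9.17 in the control arrays. Its knockdown values also lay on either side of the controls, and the difference was -0.02 (SE 0.13, 95% interval -0.33 to 0.29), or 0.0277 after quantile normalization. SRXN1, sulfiredoxin, which repairs over-oxidised peroxiredoxins, read 9.18 and 8.32 in the knockdown arrays, against 9.18 and 9.11 in the control arrays. Replicate 2 lay 0.82 below the control mean, whereas replicate 1 lay 0.04 above it. The difference of -0.39 had the widest interval of the 9 genes (SE 0.26, 95% interval -1.03 to 0.25, limma adjusted p = 0.566). Without knockdown replicate 1 the SRXN1 difference was -0.82, and without knockdown replicate 2 it was 0.04, so 1 array decides it. With 1 knockdown array left, neither fit holds a spread between knockdown cultures.

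Quinone reduction and heme breakdown are the tasks of NQO1 and HMOX1. NQO1, the quinone reductase often used as a readout of NRF2, read 11.02 and 10.48 in the knockdown arrays, against 11.04 and 10.96 in the control arrays. Replicate 1 lay between the controls and replicate 2 lay 0.52 below their mean, for a difference of -0.25 (SE 0.18, 95% interval -0.69 to 0.19, limma adjusted p = 0.600). HMOX1, heme oxygenase 1, which NRF2 activates and the repressor BACH1 holds back, read 8.84 and 8.35 in the knockdown arrays, against 8.43 and 8.54 in the control arrays. One knockdown array was above both controls and the other below both, and the difference was 0.11 (SE 0.17, 95% interval -0.30 to 0.53). Limma adjusted p-values of the other 5 antioxidant genes besides SRXN1 and NQO1 lay between 0.702 for GSR and 0.969 for TXNRD1.

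**Figure D2:**
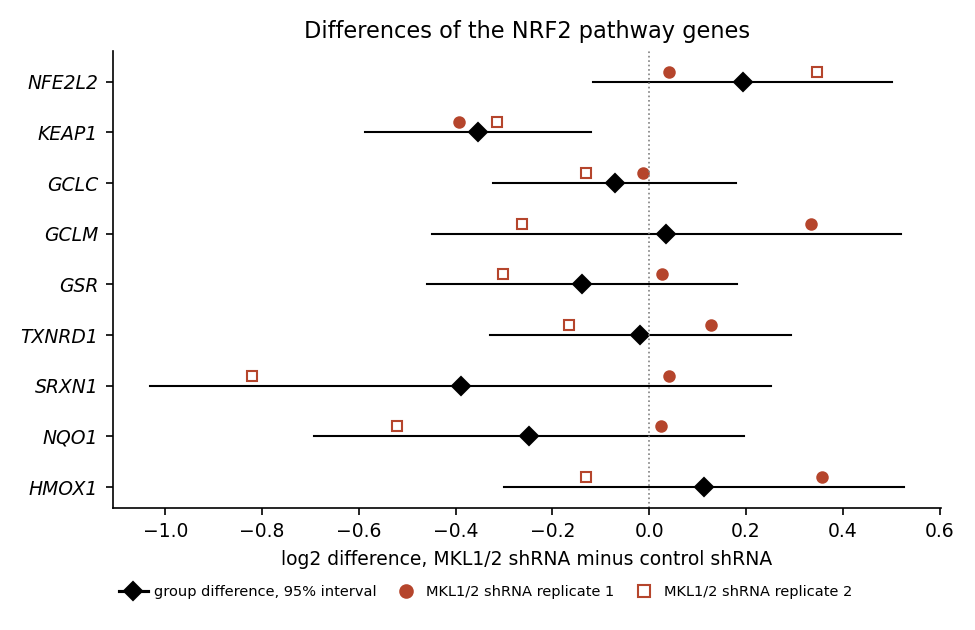
Log2 differences, knockdown minus control (x axis), for the 9 genes, with a diamond and bar for the group difference and its 95% interval from limma, and red symbols for each knockdown array minus the control mean. The interval of KEAP1, -0.59 to -0.12, is the 1 of 9 that leaves out 0, before adjustment over all genes.

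For all 7 antioxidant genes the gap between the knockdown arrays was wider than the difference between the groups. Replicate 1 minus replicate 2 was 0.86 for SRXN1, 0.60 for GCLM, 0.54 for NQO1, 0.49 for HMOX1, 0.33 for GSR, 0.29 for TXNRD1 and 0.12 for GCLC on the log2 scale. In size this gap ranked above 80% of all genes for 6 of the 7, GCLC being the exception, and at the 99.0th percentile for SRXN1. Neither the gap nor the 80% cut was among the planned results, and TXNRD1 lay just over the cut, at the 80.5th percentile. The gaps between the control arrays were between 0.03 and 0.15 for the 9 genes. Over all genes, replicate 2 was the lower for 52.1%. All 7 lay below both controls in replicate 2 and not in replicate 1, which held for 17.1% of all genes. That condition was not among the planned results and follows the pattern of these 7 genes, so the share only describes it. NFE2L2 ran the other way, with replicate 2 higher by 0.30, and KEAP1 differed by 0.08 between the arrays. Replicate 2 was the lower of the knockdown arrays for 5 of 5 measured endothelial markers, 4 of 5 leukocyte markers, 2 of 6 fibroblast markers and 5 of 9 hepatocyte markers. The endothelial list had a median of 5.02 and 4.72 in the knockdown arrays, against 4.74 and 4.65 in the control arrays, and the leukocyte list 5.33 and 5.24 in the knockdown arrays, against 5.18 and 5.19 in the control arrays. The fibroblast list had a median of 5.44 and 5.80 in the knockdown arrays, against 5.41 and 5.57 in the control arrays, and the hepatocyte list 11.36 and 11.21 in the knockdown arrays, against 11.46 and 11.41 in the control arrays. Single markers with wide gaps, replicate 1 minus replicate 2, were CD68 (0.96), PECAM1 (0.68), PDGFRA (-0.87) and LUM (-1.47), named after their values were seen. The gap sets cultures of the same group against each other and has no test, and the part of these markers in it was not tested.

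**Figure D3:**
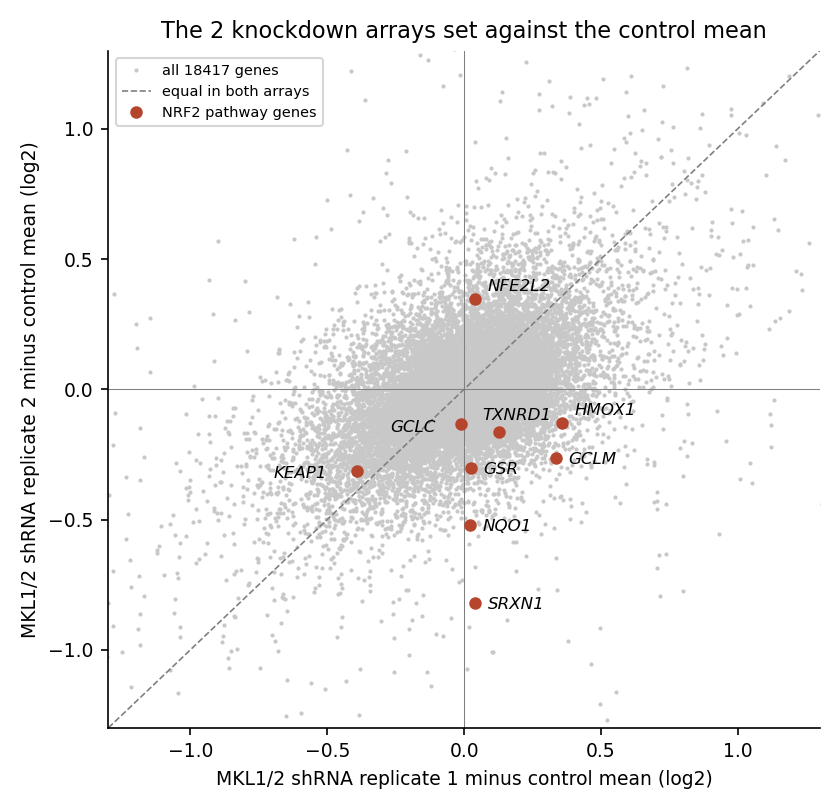
Knockdown replicate 1 (x axis) and replicate 2 (y axis), each minus the control mean on the log2 scale, with the 9 NRF2 pathway genes in red over all 18417 genes in grey (points beyond 1.3 are not drawn) and a dashed line where both arrays are equal. The 7 antioxidant genes lie below the dashed line and below 0 on the y axis, with SRXN1 lowest at -0.82, NFE2L2 lies above the line, and KEAP1 lies close to it.

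Genes that control NRF2 or work beside it tended to read lower in knockdown cells, and none passed the test. Of 16 measured (17 listed), 14 lay below 0, against 8835 of all 18417 genes. The list median was -0.21, against 0.01 over all genes. The groups did not overlap for 9 on the lower and 2 on the higher side; over all genes these shares were 23% and 22.5%. NFE2L1, a relative of NRF2 that responds to proteasome inhibition, read 8.03 and 8.32 in the knockdown arrays, against 8.92 and 8.83 in the control arrays, a difference of -0.70 (SE 0.13, limma adjusted p = 0.120). Both knockdown values were lower. NFE2L3, another relative, lay at -0.52 (SE 0.10, limma adjusted p = 0.132), with 8.24 and 8.09 in the knockdown arrays, against 8.66 and 8.71 in the control arrays. The co-activator CREBBP and PALB2, a DNA repair protein that can bind KEAP1, lay at -0.36 and -0.34. At an unadjusted p under 0.05 in limma 6 of the 16 were lower and 1 was higher, where 8.04% and 6.25% of all genes were. The 16 ranked from the 54.4th to the 96.4th percentile of mean level, so the shares of all genes include dimmer ones than these. After quantile normalization the list median was -0.16.

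Detoxification genes of the aldo-keto reductase family held the 1 gene of these lists that passed. AKR1C1, a ketosteroid reductase that NRF2 activates in human cells, read 8.46 and 8.73 in the knockdown arrays, against 7.31 and 7.31 in the control arrays. It rose 2.43-fold, with both knockdown arrays above both controls and, unlike the antioxidant genes, replicate 2 the higher (limma adjusted p = 0.0316). The size depended on the probe: the log2 difference was 1.28 for the probe used and 0.89 for the mean of all probes of the gene. That mean also passed in limma (adjusted p = 0.0415). The call was lost without control replicate 1 (adjusted p = 0.684) or control replicate 2 (adjusted p = 0.530), with all probes tested (0.188) and without variance moderation (0.466), and over all alternatives the adjusted p ran from 0.0068 to 0.684. AKR1B10, a reductase of retinal and lipid aldehydes, read 8.41 and 7.28 in the knockdown arrays, against 5.47 and 5.62 in the control arrays. Its difference of 2.30 was the largest of the 7 lists and did not pass, with knockdown arrays 1.13 apart (SE 0.34, limma adjusted p = 0.0838). EPHX1, microsomal epoxide hydrolase, lay at 0.59 (SE 0.11, limma adjusted p = 0.128), and AKR1C3 at 0.65 with control values of 3.80 and 3.91, where 3.99 was the lower quartile of that second control array. Transcripts of close paralogs could share probes among the AKR1C genes. Of 17 measured detoxification genes (20 listed), 1 rose and 0 fell at the limma threshold, where 0.0814% and 0.0923% of all genes did. Above 0 lay 12 of the 17, against 9560 of all 18417 genes, and the list median was 0.11. Groups did not overlap for 9 on the higher side and 0 on the lower; over all genes these shares were 22.5% and 23%.

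Genes of glutathione supply and use went both ways. Of 36 measured (37 listed), 0 passed the test and the median was 0.08. Above 0 lay 21 of the 36, against 9560 of all 18417 genes. At an unadjusted p under 0.05 in limma, 9 of the 36 were higher and 2 lower, where 6.25% and 8.04% of all genes were. The glutathione transferase GSTM4 read 8.34 and 8.48 in the knockdown arrays, against 7.59 and 7.36 in the control arrays, a difference of 0.93 (SE 0.12, limma adjusted p = 0.0688). GSTA1, a transferase of hepatocytes, lay at 1.24 (SE 0.18, limma adjusted p = 0.0838), with 6.29 and 6.82 in the knockdown arrays, against 5.32 and 5.31 in the control arrays. Its close paralog GSTA2 lay at 0.66. SLC7A11, the cystine transporter that supplies glutathione synthesis and is activated by both NRF2 and ATF4, read 7.13 and 7.38 in the knockdown arrays, against 8.28 and 8.10 in the control arrays. Both knockdown values were lower, for a difference of -0.93 (SE 0.13, limma adjusted p = 0.0765).

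**Figure D4:**
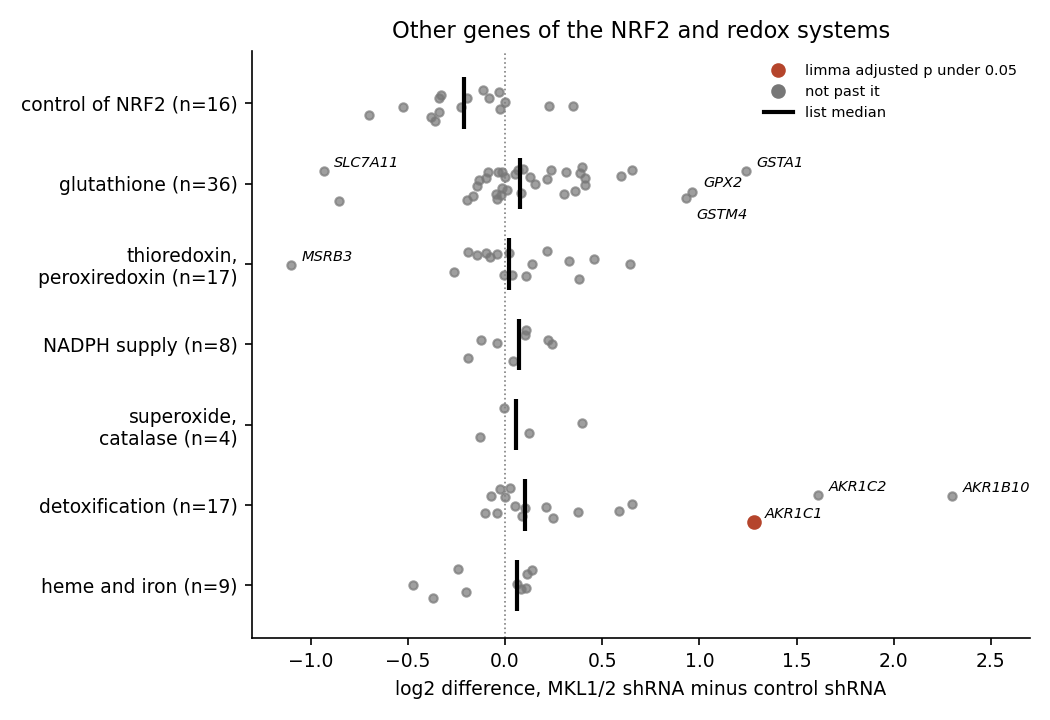
Log2 differences, knockdown minus control (x axis), of the measured genes in 7 lists of the NRF2 and redox systems, 1 point a gene, with a black bar at each list's median and genes beyond 0.9 named, a limit set after seeing the values. AKR1C1, in red, is the 1 gene with a limma adjusted p under 0.05, and list medians lie between -0.21 and 0.11.

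The other redox lists held no gene that passed the test. Among 17 measured thioredoxin and peroxiredoxin genes (19 listed), the median was 0.02, and MSRB3, a methionine sulfoxide reductase, read 5.55 and 6.01 in the knockdown arrays, against 6.78 and 6.99 in the control arrays. Its difference was -1.10 (SE 0.17, limma adjusted p = 0.0944). PRDX4, the peroxiredoxin of the endoplasmic reticulum, lay at 0.38, the stress-induced SESN1 at 0.46 and PRDX6 at 0.22, with limma adjusted p-values between 0.223 and 0.361. For the 8 measured genes of NADPH supply (9 listed) the median was 0.07 and 0 reached an unadjusted p under 0.05 in limma. The pentose phosphate genes TKT, TALDO1 and PGD lay at 0.24, -0.19 and 0.11, and the mitochondrial dehydrogenase IDH2 at 0.22. Of the 4 superoxide and peroxide enzymes, CAT, catalase, read 9.06 and 9.03 in the knockdown arrays, against 8.65 and 8.65 in the control arrays, a difference of 0.40 (SE 0.09, limma adjusted p = 0.162). The dismutases SOD1, SOD2 and SOD3 lay at -0.13, -0.003 and 0.12. Among 9 measured heme and iron genes (10 listed) the median was 0.06. FECH, ferrochelatase, which inserts iron into protoporphyrin to form heme, lay at -0.48 (SE 0.09, limma adjusted p = 0.132), the transferrin receptor TFRC at -0.24, the porphyrin transporter ABCB6 at -0.37 and the heme transporter SLC48A1 at 0.14.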

How the data were processed

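Total RNA of 4 HuH7 cultures was measured on 1 array each, and sample titles gave the group and the replicate number. The deposited values are log2 expression values for 33297 probes, a scale inferred from the values themselves. Per the submitters' processing notes Partek was used, while how background was corrected and how arrays were normalized and summarized is not given in the sources used here. Since scanner files were not analysed here, whether a dim probe was detected is unknown, and no dim gene was removed. The number of arrays limits the precision.

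The platform annotation names 1 gene for 19460 probes, several for 1754 and none for 12083. After an update of symbols through the RefSeq gene table, the probe with the highest mean was kept for each of 18417 genes, and each of the 9 members has 1 such probe. Differences, knockdown minus control, were tested two-sided in R 4.3.3 with limma 3.58.1 (lmFit, then eBayes, on group alone). P-values were adjusted by Benjamini-Hochberg over the 18417 genes, with a threshold of 0.05, 2 residual and 4.12 prior degrees of freedom. The procedure was tested on simulated data. An exact permutation test of 2 against 2 cannot go below p = 0.333 and was not used.

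Members and lists were chosen with earlier results of these data known. The named genes are the 9 members, MKL1, MKL2 and SRF, each list gene past the threshold, and the 4 genes with the smallest p in each redox list. Cell type markers and the genes said to be so were named after their values were seen. Equal replicate numbers were not read as pairs, because no label ties a number to a shared day or batch. No arrays were duplicates: at most 174 probes had identical values in any pair. Alternatives covered the filter, normalization, probe choice, variance moderation, replicate block and leaving out each array.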

Additional observations from a re-analysis of the deposited data

How the results depend on the processing

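The call of 0 members held in limma under each of the 9 settings that kept all 4 arrays. Of these settings only quantile normalization and median centring could move a member's difference. The others change the spread or the set of genes or probes, and each member has 1 probe. TXNRD1 turned sign under quantile normalization (0.0277, against -0.0188), and the other 8 members kept their direction under quantile normalization and median centring. Over all genes, 17 lower and 15 higher calls became 27 lower without the dimmest 40% of genes, 30 lower with quantile normalization, and 28 lower and 23 higher with robust moderation. They became 0 in limma with all probes (1915 lower and 1571 higher at an unadjusted p under 0.05) and 0 without moderation (1022 and 818). With the replicate number as a block there were 38 lower and 55 higher calls, among them 2 glutathione genes higher, 2 detoxification genes higher and 1 thioredoxin gene lower; the deviations of same-numbered arrays correlated at -0.07 across genes, and the block changed no call of a member. The NRF2 control median was -0.16 and 1 glutathione gene was called higher under quantile normalization, and 0 detoxification genes were called with all probes (6 at an unadjusted p under 0.05) or without moderation (4). The cause was not tested in any of these cases.

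Leaving out 1 array in turn gave 0 to 442 lower and 0 to 339 higher calls over all genes. The calls were 0 in both directions without control replicate 1 (452 lower and 414 higher at an unadjusted p under 0.05 in limma) or control replicate 2 (676 and 543). SRXN1 was the 1 member whose call changed, to lower, without knockdown replicate 1. Its difference of -0.82 in that fit rests on 1 knockdown array. The member differences ranged from -0.26 to 0.33 for GCLM, -0.303 to 0.0254 for GSR, -0.13 to 0.36 for HMOX1, -0.52 to 0.0234 for NQO1, -0.82 to 0.041 for SRXN1 and -0.17 to 0.13 for TXNRD1. NFE2L2 (0.04 to 0.35), KEAP1 (-0.39 to -0.32) and GCLC (-0.13 to -0.01) kept their direction. List medians ranged from 0.0241 to 0.0833 for NADPH supply, -0.22 to -0.17 for NRF2 control, 0.0847 to 0.329 for detoxification, -0.0129 to 0.076 for heme and iron, -0.0221 to 0.131 for thioredoxin genes, 0.0487 to 0.093 for glutathione (0.0752 with all arrays), and -0.0481 to 0.2916 for superoxide and catalase (0.0591 with all arrays). The heme and iron, thioredoxin, and superoxide and catalase medians turned below 0 without knockdown replicate 1. The heme and iron median also did so without control replicate 2 (-0.0026), and the thioredoxin median without control replicate 1 (-0.0092). Called genes ranged from 0 to 1 lower for NRF2 control, 0 to 5 higher for detoxification, 0 to 6 higher and 0 to 2 lower for glutathione, 0 to 1 lower for heme and iron, and 0 to 1 in each direction for thioredoxin genes. With an array left out, the lone array of its group is assumed to vary like the other group.

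Settings for the gap between the knockdown arrays were chosen after seeing the data. All 7 antioxidant genes stayed lower in replicate 2 than in replicate 1, and below both controls in replicate 2, under quantile normalization and median centring. The median gap was 0.54 under quantile normalization and 0.48 under median centring. Averaging probes could not change these values, because each of the 7 genes has 1 probe.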

Other observations

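The genes in this paragraph were chosen after their values were seen. Some other redox genes had the same order of the knockdown arrays as the antioxidant genes, with replicate 1 above replicate 2. GPX2, a glutathione peroxidase of epithelial cells, read 11.76 and 10.78 in the knockdown arrays, against 10.17 and 10.44 in the control arrays, so both knockdown values were the higher ones (difference 0.96, SE 0.30, limma adjusted p = 0.250). AKR1C2 read 8.18 and 6.78 in the knockdown arrays, against 5.90 and 5.84 in the control arrays (difference 1.61, SE 0.41, limma adjusted p = 0.187). SOD2, mitochondrial superoxide dismutase, read 10.40 and 9.53 in the knockdown arrays, on either side of 10.02 and 9.92 in the control arrays. BLVRB, a biliverdin reductase, read 7.21 and 6.67 in the knockdown arrays, against 7.16 and 7.13 in the control arrays, with replicate 2 alone below both controls. The order was not general among redox genes: replicate 2 was the lower for 63 of the 107 measured genes on the 7 lists, or 58.9%, against 52.1% of all genes. GSTA1, AKR1C1 and SLC7A11 had replicate 2 as the higher. None of these gaps has a test.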
